A study of Mus musculus with 2 samples.

Results

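Phosphoinositide kinases and phosphatases were described in the 2 main populations of dendritic cells (DCs) of mouse spleen, those with and those without CD8α. The genes were taken by symbol: every gene with a probe set of its own whose symbol starts with Pik3, Pip4k, Pip5k, Inpp or Mtmr, with the probe set of the highest mean signal standing for the gene. This gave 45 genes with 98 probe sets, out of 18194 genes on the array. C57BL/6 mice carried B16 melanoma cells that make Flt3 ligand, a cytokine that expands DCs, for 10 to 12 days. CD8+ DCs (CD3-B220-CD8a+CD11c+) and CD8- DCs (CD3-B220-CD8a-CD11c+) were then sorted from the spleen and left unstimulated. Both populations therefore come from tumour-bearing, Flt3 ligand-exposed mice, and how many mice were pooled is not given in the sources used here. Each population was measured on 1 Affymetrix array, so no value has a replicate, no difference was tested, and variation between mice, sorts or hybridisations cannot be told apart from a difference between the populations.

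Phosphoinositides are membrane lipids whose inositol ring is phosphorylated and dephosphorylated at defined positions, and each phosphorylated form recruits its own set of proteins to a membrane. Class I PI3-kinases make PIP3 at the plasma membrane, where it recruits kinases such as Akt and Btk, while the class III enzyme Vps34 makes PI3P, a mark of early endosomes and autophagosomes. Phosphatases act on these lipids in turn. Myotubularins remove the phosphate that Vps34 adds, while SHIP1 acts on PIP3 but leaves in place the phosphate that class I PI3-kinases add. In DCs, Flt3 and pattern recognition receptors signal in part through class I PI3-kinases, and antigen uptake passes through endosomes marked by PI3P.

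The arrays carried the labelled populations as far as markers show. Cd8a, the gene of CD8α, was at a log2 signal of 11.29 in CD8+ DCs, against 5.15 in CD8- DCs, and the DC genes Itgax and Flt3 were bright on both arrays (9.80 and 10.07 in CD8+ DCs, 10.69 and 9.80 in CD8- DCs). Of the marker genes of each population, 10 of 11 measured for CD8+ DCs and 8 of 9 for CD8- DCs were past 2-fold on the side of their name. Signals are log2 values, and a value under the median of the whole table, 3.85, is called below the floor here. A gene was counted as measured where at least 1 array reached the floor, which left 38 of the 45 genes and 11404 of all genes. All 38 were above the floor on both arrays. The other 7 were below it on both: Pik3r3, Pik3c2g, Pip5kl1, Inpp4b, Mtmr7, Mtmr11 and Pip5k1bos, an antisense RNA taken in by its symbol. Their log2 signals lay between 1.86 and 3.45 in CD8+ DCs and between 1.67 and 3.29 in CD8- DCs.

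The differences of these enzymes were spread much like those of all measured genes. The log2 difference, CD8+ minus CD8-, had a median of 0.02 over the 38 measured genes, with quartiles of -0.25 and 0.22. Over all 11404 measured genes the median was 0.03, with quartiles of -0.24 and 0.26. Inpp1 was the 1 gene past 2-fold on the CD8+ side, as were 3.55% of all measured genes. Pik3ip1 and Inpp5f passed 2-fold on the CD8- side, as did 5.97% of all measured genes. Together these 3 genes are 7.89% of the measured members, near the background of 9.52% in either direction. In RNA from a sorted population, fewer cells with a transcript and less of it per cell cannot be told apart.

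**Figure D1:**
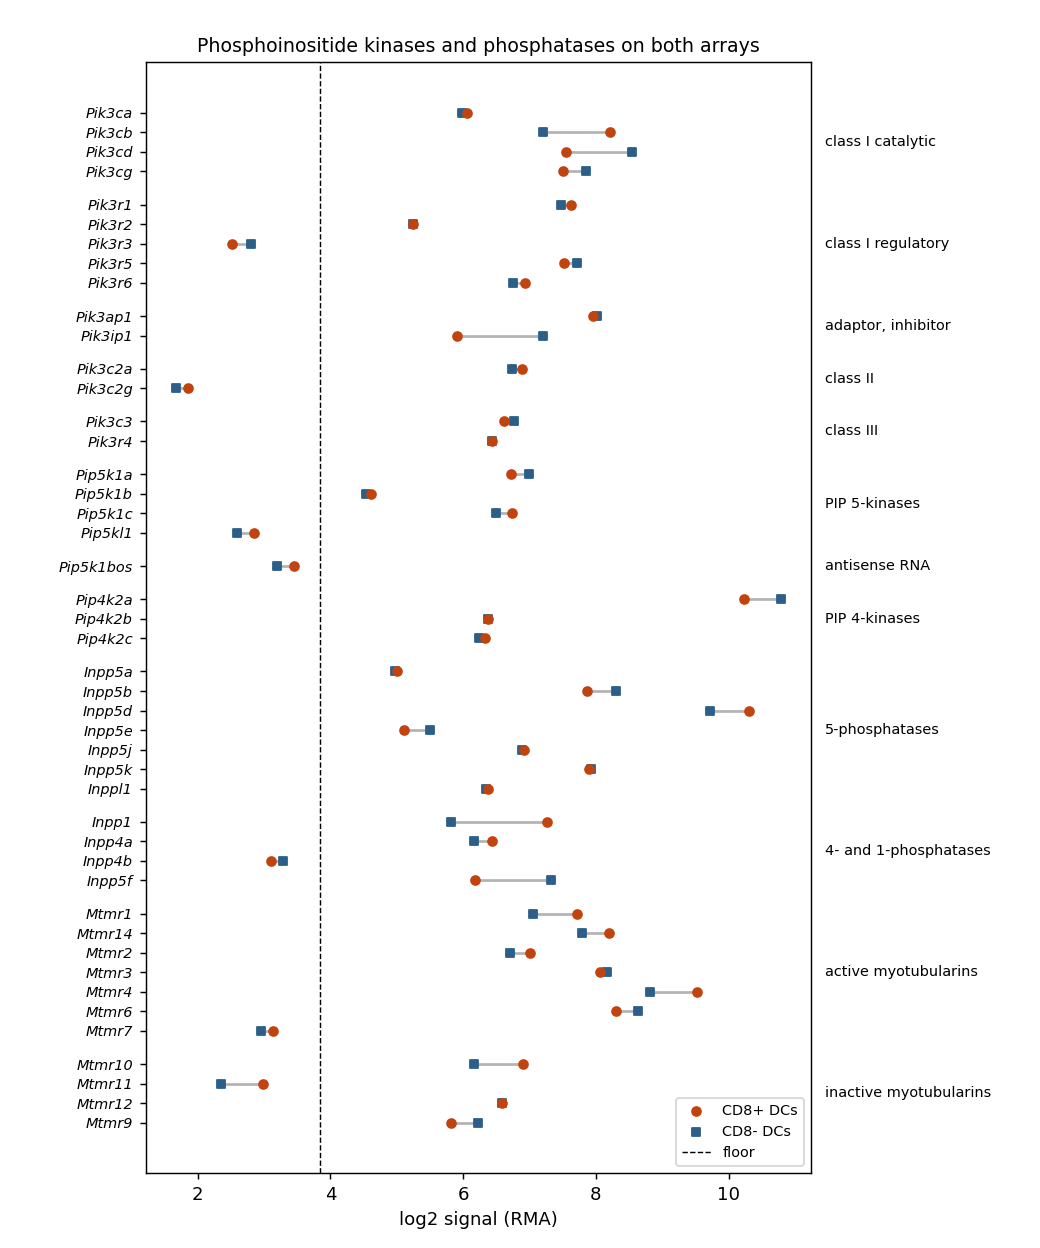
The log2 signal of each of the 45 genes (horizontal axis) in CD8+ DCs (circles) and CD8- DCs (squares), with 1 array each, grouped by role, and the floor of 3.85 as a dashed line. Long bars join the values of Inpp1, Pik3ip1, Inpp5f, Pik3cb and Pik3cd, and 7 genes lie left of the floor on both arrays.

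Of the class I catalytic subunits, Pik3cb had the higher signal in CD8+ DCs and Pik3cd in CD8- DCs. Pik3cb encodes p110β, which Gβγ subunits of G protein-coupled receptors can activate, and reached a log2 signal of 8.21 in CD8+ DCs, against 7.21 in CD8- DCs. Pik3cd encodes p110δ, the form typical of leukocytes, and had 7.55 in CD8+ DCs, against 8.54 in CD8- DCs. The differences of 0.99 and -0.99 were of the same size in opposite directions, each 1.99-fold and thus just under 2-fold. Of all measured genes, 410 had a higher difference than Pik3cb and 691 a lower one than Pik3cd. Pik3cb had 1 probe set. Of the 5 Pik3cd probe sets above the floor, 4 were higher in CD8- DCs, with differences of -1.04 to -0.67, and the fifth was higher in CD8+ DCs (6.96 in CD8+ DCs, 6.71 in CD8- DCs). Centring each array on its median moved Pik3cd to -1.02, past 2-fold, and averaging all 6 of its probe sets moved it to -0.59. Pik3ca, which encodes the widely expressed p110α, was at 6.06 in CD8+ DCs, against 5.98 in CD8- DCs, and its 5 probe sets above the floor differed by -0.54 to 0.08. Pik3cg, which encodes p110γ, a Gβγ-activated form, was at 7.50 in CD8+ DCs, against 7.85 in CD8- DCs, with both probe sets on the CD8- side.

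The regulatory subunits differed little. Pik3r1 encodes p85α and its shorter forms, which hold the catalytic subunits and bind phosphotyrosines. Its log2 signal was 7.62 in CD8+ DCs, against 7.48 in CD8- DCs, and its 4 probe sets pointed both ways, from -0.26 to 0.27. Pik3r2, which encodes p85β, held the same value of 5.25 on both arrays. A difference of exactly 0 was found for 292 of the 11404 measured genes. The p110γ partners Pik3r5, which encodes p101, and Pik3r6, which encodes p84, differed by -0.19 and 0.18. Thus none of the 4 measured regulatory genes came near the size of the Pik3cb and Pik3cd differences.

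Pik3ip1 had the largest difference of the set on the CD8- side. It encodes a membrane protein with a kringle domain that binds p110 and lowers class I PI3-kinase activity. Its log2 signal was 5.90 in CD8+ DCs, against 7.21 in CD8- DCs, 2.49-fold higher in CD8- DCs. The second probe set had the same direction but a smaller size, at 6.10 in CD8+ DCs, against 6.72 in CD8- DCs, and the mean of both, -0.97, was under 2-fold. Of all 11404 measured genes, 459 had a lower difference. Pik3ap1, which encodes BCAP, an adaptor that links B cell and Toll-like receptors to PI3-kinase, was at 7.95 in CD8+ DCs, against 8.02 in CD8- DCs.

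The measured class II and class III genes differed by 0.15 or less. Pik3c3 encodes Vps34, and its log2 signal was 6.62 in CD8+ DCs, against 6.76 in CD8- DCs. Pik3r4 encodes Vps15, the subunit that holds Vps34 to membranes, and was at 6.43 on both arrays. The 1 probe set of Pik3r4 has a name that marks it as prone to cross-hybridisation. The class II gene Pik3c2a, whose product acts in clathrin-mediated uptake, differed by 0.15 at each of its 2 probe sets above the floor.

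Among the kinases that make PI(4,5)P2, the substrate of class I PI3-kinases, Pip4k2a stood out by the agreement of its probe sets. It encodes a kinase that uses PI5P, and its log2 signal was 10.23 in CD8+ DCs, against 10.79 in CD8- DCs. All 4 of its probe sets were higher in CD8- DCs, with differences of -0.76 to -0.56, or 1.47-fold at the brightest. Its paralogs Pip4k2b and Pip4k2c differed by 0.02 and 0.09. Of the kinases that use PI4P, Pip5k1a differed by -0.27, Pip5k1b by 0.08 and Pip5k1c by 0.24. The probe sets of Pip5k1a (-0.27 to 0.25) and of Pip5k1c (-0.05 to 0.24) pointed both ways.

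The 5-phosphatases include the enzymes that act directly on PIP3. Inpp5d encodes SHIP1, the PIP3 phosphatase of blood cells, and reached a log2 signal of 10.31 in CD8+ DCs, against 9.72 in CD8- DCs. Both of its probe sets were higher in CD8+ DCs, by 0.59 and 0.42. Inppl1, which encodes the related SHIP2, was at 6.37 in CD8+ DCs, against 6.34 in CD8- DCs. Inpp5b, whose product binds Rab GTPases on endosomes and Golgi, was at 7.87 in CD8+ DCs, against 8.31 in CD8- DCs. Inpp5e, known for its role in primary cilia, differed by -0.39, but its second probe set differed by -0.03. Inpp5a, which acts on the soluble messenger IP3, differed by 0.02, and Inpp5j and Inpp5k differed by 0.04 and -0.03.

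Inpp1 and Inpp5f had the largest differences among the phosphatases, in opposite directions. Inpp1 encodes an enzyme that removes a phosphate from soluble inositol phosphates and is blocked by lithium, so it acts on the breakdown products of IP3 and not on lipids. Its log2 signal was 7.26 in CD8+ DCs, against 5.81 in CD8- DCs, 2.72-fold higher in CD8+ DCs, and 214 of the 11404 measured genes had a higher difference. The second probe set was at 5.44 in CD8+ DCs and 3.61, below the floor, in CD8- DCs. Inpp5f encodes Sac2, which despite its name removes the phosphate of PI4P on endocytic membranes. Its log2 signal was 6.18 in CD8+ DCs, against 7.32 in CD8- DCs, 2.20-fold higher in CD8- DCs. Its other 2 probe sets pointed the same way at -0.67 and -0.70, and the mean of all 3 was -0.84, under 2-fold. Inpp4a, a phosphatase of PI(3,4)P2, the product of SHIP1, differed by 0.28.

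To show the promoters of the 5 genes with the largest differences, the 250 bases before the annotated start are given from the RefSeq table of GRCm38.p6, each 5′ to 3′ on the strand of its gene. They lie at chr1:52817689-52817938 (minus strand) for Inpp1, chr11:3330481-3330730 (plus) for Pik3ip1, chr7:128611115-128611364 (plus) for Inpp5f, chr9:99140212-99140461 (minus) for Pik3cb and chr4:149698709-149698958 (minus) for Pik3cd, the most upstream of its 3 windows. Capitals mark the GC box GGGCGG, the letters bound by Sp1-type factors, read on either strand.
Inpp1: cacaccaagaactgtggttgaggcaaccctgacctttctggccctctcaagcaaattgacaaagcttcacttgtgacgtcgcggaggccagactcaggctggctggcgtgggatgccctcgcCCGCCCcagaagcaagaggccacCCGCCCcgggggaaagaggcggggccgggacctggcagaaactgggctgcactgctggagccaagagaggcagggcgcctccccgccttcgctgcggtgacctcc
Pik3ip1: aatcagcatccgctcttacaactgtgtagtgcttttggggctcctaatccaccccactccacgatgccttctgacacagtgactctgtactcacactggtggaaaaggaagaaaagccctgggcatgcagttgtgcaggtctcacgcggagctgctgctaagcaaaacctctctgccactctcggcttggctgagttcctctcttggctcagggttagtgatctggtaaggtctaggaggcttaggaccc
Inpp5f: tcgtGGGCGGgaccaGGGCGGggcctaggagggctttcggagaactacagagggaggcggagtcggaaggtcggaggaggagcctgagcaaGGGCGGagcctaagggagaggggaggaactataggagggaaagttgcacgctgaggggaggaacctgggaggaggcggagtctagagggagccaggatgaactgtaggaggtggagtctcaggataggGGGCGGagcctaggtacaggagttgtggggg
Pik3cb: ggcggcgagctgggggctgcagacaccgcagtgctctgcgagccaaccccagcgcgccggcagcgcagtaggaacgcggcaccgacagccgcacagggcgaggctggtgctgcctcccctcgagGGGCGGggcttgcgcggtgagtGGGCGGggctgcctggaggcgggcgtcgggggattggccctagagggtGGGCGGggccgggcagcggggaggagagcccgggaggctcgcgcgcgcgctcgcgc
Pik3cd: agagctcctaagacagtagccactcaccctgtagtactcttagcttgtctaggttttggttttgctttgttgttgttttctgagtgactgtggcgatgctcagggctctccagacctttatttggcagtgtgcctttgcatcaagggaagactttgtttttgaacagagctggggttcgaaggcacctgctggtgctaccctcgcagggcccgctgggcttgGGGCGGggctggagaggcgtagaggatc
The GC box was found 2 times in the Inpp1 window, 4 times in that of Inpp5f, 3 times in that of Pik3cb and 1 time in this window of Pik3cd. The Pik3ip1 window held none. These letters thus occurred on both sides of the comparison.

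Of the 38 measured genes, 30 had windows in that table, 41 in all, and windows of a gene share the gene. The windows compared with them below were not limited to measured genes. The sets are thus unlike, and a gap between them cannot be read as particular to these enzymes. The GC box was in 27 of the 41 windows (65.9%), against 42.6% of 21263 windows of protein-coding genes and 32.7% of all 32851 windows. These windows also had more G and C, with a median of 61.6% against 55.6% in protein-coding windows. The TATA box TATAAA was in 1 window (2.44%, against 11.6% of protein-coding windows). The core GAGGAAG of PU.1, a factor of myeloid cells and DCs, was in 5 windows (12.2%, against 10.3%), those of Inpp5d, Mtmr14, Pik3ap1, Pik3cg and Pik3r4. The ETS-IRF composite element was in 1 window, that of Inppl1 (2.44%, against 2.16%), and the interferon-stimulated response element was in none (2.96% of protein-coding windows). All motifs were read on both strands, and the letters of both elements can overlap each other. A match describes letters and not a bound site.

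Myotubularins remove the phosphate that Vps34 adds, and of the 9 measured, 5 were higher in CD8+ DCs, 3 were lower, and Mtmr12 had the same value to 2 decimals. None reached 2-fold. At 1.5-fold, 3 were past it on the CD8+ side (background 8.49%) and none on the CD8- side (background 11.5%). Mtmr4 encodes an active phosphatase of early endosomes with a FYVE domain, and reached a log2 signal of 9.52 in CD8+ DCs, against 8.82 in CD8- DCs. Its 3 probe sets differed by 0.70 to 0.82. Mtmr1, also active, was at 7.71 in CD8+ DCs, against 7.06 in CD8- DCs, with its probe sets at 0.65 and 0.47. Mtmr10, a member without catalytic activity, was at 6.90 in CD8+ DCs, against 6.16 in CD8- DCs on 1 probe set. These 3 were the myotubularins past 1.5-fold.

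The other myotubularins differed by less. Mtmr14, an active member known as a brake on autophagy, differed by 0.41, and Mtmr2, mutated in a human Charcot-Marie-Tooth neuropathy, by 0.30. Mtmr6 encodes an active phosphatase that pairs with the inactive Mtmr9, and both genes were lower in CD8+ DCs. Mtmr6 was at 8.31 in CD8+ DCs, against 8.63 in CD8- DCs, with all 4 probe sets between -0.52 and -0.23. Mtmr9 was at 5.81 in CD8+ DCs, against 6.22 in CD8- DCs, but its 3 probe sets pointed both ways, from -0.41 to 0.30. Mtmr3, which has a FYVE domain like Mtmr4, differed by -0.11 at its brightest probe set, whose name marks it as prone to cross-hybridisation, and by -0.56 at its other one above the floor. Mtmr12, an inactive partner of myotubularin, was at 6.59 on both arrays.

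Several probe sets of a gene give a view of spread within the pair of arrays. They can read different parts or forms of a transcript, so this spread is not technical alone. In 15 of the 23 members with several probe sets above the floor, every one pointed the same way. In the other 8 (Mtmr9, Pik3ap1, Pik3ca, Pik3cd, Pik3r1, Pip4k2c, Pip5k1a and Pip5k1c) they did not. Within a gene, the differences of its probe sets had a pooled SD of 0.26 over these 64 probe sets, and of 0.30 over 5183 genes of the array. In all, 19 of the 38 measured members differed by more than 0.26, Inpp1, Pik3ip1, Inpp5f, Pik3cb and Pik3cd among them, as did 48.5% of all measured genes. This SD does not measure variation between mice or sorts. Of the 79 member probe sets above the floor, 2 passed 2-fold on the CD8+ side and 4 on the CD8- side, together 7.59%, against 8.91% of all such probe sets.

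**Figure D2:**
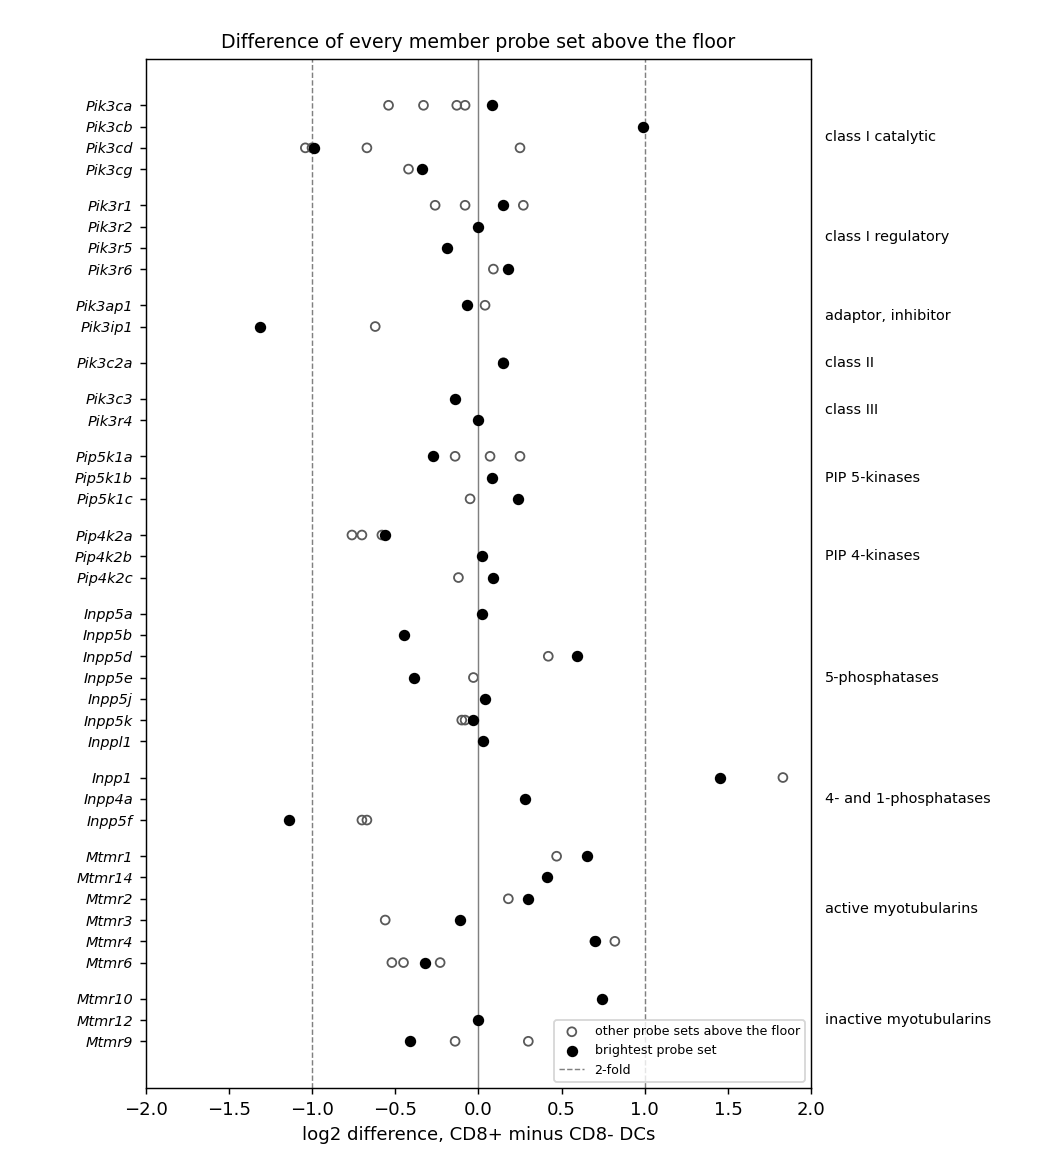
The log2 difference, CD8+ minus CD8- DCs, of each of the 79 member probe sets above the floor (filled, the brightest of its gene; open, the others), by gene and role, with dashed lines at 2-fold. Both probe sets of Inpp1 lie right of 2-fold, 3 of the 5 of Pik3cd lie near the left line, and the 4 of Pip4k2a lie together between -0.76 and -0.56.

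The size of the difference, without its sign, had a median of 0.39 over the 19 measured Inpp and Mtmr genes and of 0.15 over the 19 measured Pik3, Pip4k and Pip5k genes, against 0.25 over all measured genes. The Pik3 genes include regulatory subunits, an adaptor and an inhibitor beside the kinases. By role the sizes varied within both groups. Among the Inpp and Mtmr genes, the median size was 1.14 over Inpp1, Inpp5f and Inpp4a and 0.04 over the 7 measured 5-phosphatases. It was 0.37 over the 6 active and 0.41 over the 3 inactive myotubularins measured. Among the Pik3, Pip4k and Pip5k genes, it was 0.67 over the 4 class I catalytic genes and 0.69 over Pik3ap1 and Pik3ip1. For the other roles there it lay between 0.07 (class III) and 0.24 (kinases that use PI4P). At 1.5-fold, 5 of the Inpp and Mtmr genes were higher in CD8+ DCs (Inpp1, Mtmr10, Mtmr4, Mtmr1 and Inpp5d) and 1, Inpp5f, in CD8- DCs. Among the Pik3, Pip4k and Pip5k genes, Pik3cb was past 1.5-fold in CD8+ DCs, and Pik3cd and Pik3ip1 in CD8- DCs. The 9 genes past 1.5-fold are 23.7% of the members, against 20.0% of all measured genes.

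**Figure D3:**
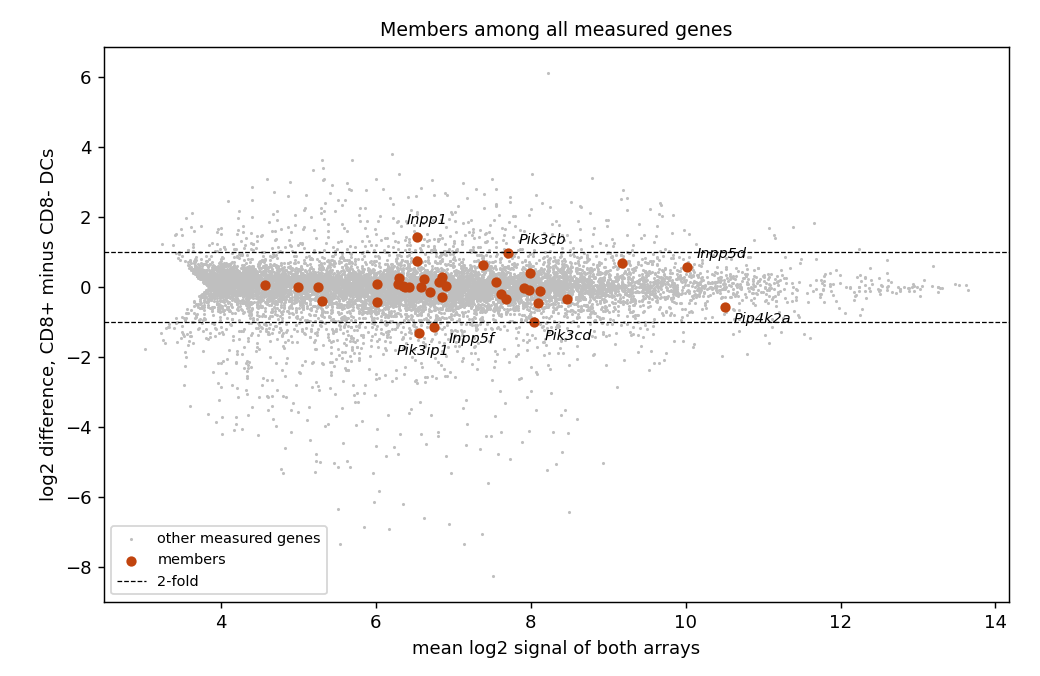
The log2 difference, CD8+ minus CD8- DCs, against the mean log2 signal of both arrays for all 11404 measured genes, with the 38 members in colour and dashed lines at 2-fold. The members lie between -1.31 and 1.45, and all measured genes, members included, between -8.26 and 6.14.

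Genes around these enzymes were taken from 5 lists. Of 19 measured other phosphoinositide enzymes, Pi4k2a alone passed 2-fold, on the CD8+ side, which is 5.26% of that list, against 9.52% of all measured genes in either direction. Pi4k2a, a PI4-kinase of endosomes and the trans-Golgi, was at 7.60 in CD8+ DCs, against 6.49 in CD8- DCs, with both probe sets on that side (1.11 and 1.34). The inactive myotubularin relative Sbf2 (0.75) and myotubularin itself, Mtm1 (0.63), were next, but the 3 Mtm1 probe sets ran from -1.49 to 0.63 and Sbf2 differed by 0.20 without probe sets prone to cross-hybridisation. Of 14 measured partners and readers of Vps34, Wdfy3, which encodes the autophagy adaptor ALFY, alone passed 2-fold (7.14% of that list), at 7.41 in CD8+ DCs, against 6.36 in CD8- DCs. Its other probe set above the floor differed by 0.76, and with all its probe sets averaged Wdfy3 differed by 0.47, under 2-fold. The endosomal FYVE protein gene Wdfy1 differed by 0.68, with 4 probe sets above the floor between 0.10 and 1.11. Atg14, the autophagy subunit of the Vps34 complex, differed by -0.67 on 1 probe set above the floor. The list medians were 0.03 and -0.05.

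Downstream of class I PI3-kinases, 1 of 31 measured effector genes was past 2-fold on each side, together 6.45%, against 9.52% of all measured genes. Arap1, which encodes a PIP3-binding GTPase-activating protein for Arf, was at 7.32 in CD8+ DCs, against 5.85 in CD8- DCs. Tec, a PIP3-recruited tyrosine kinase, was at 5.14 in CD8+ DCs, against 6.49 in CD8- DCs. Arap1 and Tec each had 1 probe set above the floor. Plekha1, which binds PI(3,4)P2, the product of SHIP1, was at 8.35 in CD8+ DCs, against 8.95 in CD8- DCs, with 3 probe sets between -1.51 and -0.60, whose mean of -1.01 was past 2-fold. The list median was -0.09.

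Upstream, 5 of 19 measured genes of receptors, adaptors and linked enzymes were past 2-fold. That is 26.3% of the list, against 9.52% of all measured genes. The list was chosen with earlier results of these data known, so its share is not an independent result. Of the 5, Csf1r is also among the CD8- DC markers used to check the sort. Another, Cblb, was under 2-fold with its probe sets averaged (0.75). Cblb, a ubiquitin ligase that restrains PI3-kinase signalling, was at 8.40 in CD8+ DCs, against 6.90 in CD8- DCs, but the smallest difference of its 3 probe sets was 0.21. The other 4 were higher in CD8- DCs. Fcer1g, the signalling chain of Fc receptors, differed by -4.70 on 1 probe set above the floor. Csf1r, a receptor tyrosine kinase, differed by -4.17. The 3 Csf1r probe sets above the floor ran from -4.17 to -1.82, and averaging gave -2.98. Ptpn6, which encodes the phosphatase SHP-1, was at 8.81 in CD8+ DCs, against 10.68 in CD8- DCs, and both of its probe sets differed by about that much (-1.87 and -1.85). Syk, the kinase recruited by such signalling chains, was at 6.70 in CD8+ DCs, against 7.73 in CD8- DCs, with 4 probe sets between -1.68 and -0.99. The list median was -0.20.

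Of 23 measured genes of phospholipase C and inositol phosphate metabolism, 2 passed 2-fold on the CD8+ side, and no gene did so on the CD8- side, which is 8.70% of that list, against 9.52% of all measured genes. Both encode phospholipases C, which cleave PI(4,5)P2 into diacylglycerol and IP3. Plce1 was at 6.76 in CD8+ DCs, against 4.26 in CD8- DCs, on 1 probe set above the floor. Plcb4 was at 9.40 in CD8+ DCs, against 7.11 in CD8- DCs. The 3 Plcb4 probe sets above the floor differed by 0.84 to 2.31, and averaging all of its probe sets gave 1.15. Itpr3, an IP3 receptor gene, was at 5.50 in CD8+ DCs, against 6.47 in CD8- DCs, on 1 probe set above the floor. The list median was 0.07.

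**Figure D4:**
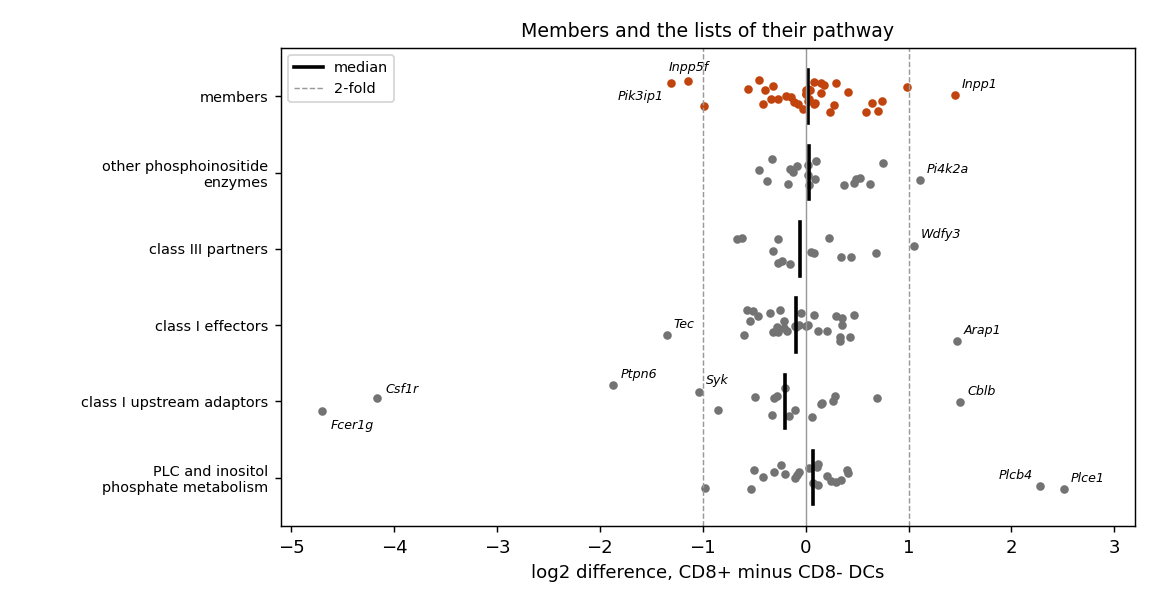
The log2 difference, CD8+ minus CD8- DCs, of each measured gene (points, spread vertically for sight) among the 38 members and the 5 lists around them, with the median as a bar and dashed lines at 2-fold. The medians lie between -0.20 and 0.07, and the farthest genes, Fcer1g and Csf1r, belong to the upstream list.

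Some markers of other cell types were above the floor, and some differed between the arrays. Of 6 B cell genes with a probe set, 2 were measured, and the signal summed over the 6 on the linear scale was 103 in CD8+ DCs, against 173 in CD8- DCs. Cd79b was at 3.28 in CD8+ DCs, against 6.59 in CD8- DCs, while Ms4a1 ran the other way, at 5.74 in CD8+ DCs, against 4.99 in CD8- DCs, and Cd79a and Pax5 were below the floor on both arrays. Of 4 T cell genes, 2 were measured, with sums of 56.2 in CD8+ DCs, against 73.6 in CD8- DCs. These were Cd3e (4.76 in CD8+ DCs, 4.90 in CD8- DCs) and Cd5 (3.95 in CD8+ DCs, 4.87 in CD8- DCs). Cd3d and Cd3g were below the floor. Of 7 monocyte and macrophage genes, 5 were measured, with sums of 402 in CD8+ DCs, against 483 in CD8- DCs. Adgre1 was at 4.63 in CD8+ DCs, against 8.22 in CD8- DCs, and Mertk and Spic were below the floor. Cd14 (7.50 in CD8+ DCs, 6.10 in CD8- DCs), Hmox1 (6.80 in CD8+ DCs, 5.65 in CD8- DCs) and Vcam1 (5.52 in CD8+ DCs, 4.66 in CD8- DCs) ran the other way. Fcgr1 was at 4.36 in CD8+ DCs, against 4.26 in CD8- DCs. Of 7 plasmacytoid DC genes, all were measured, with sums of 562 in CD8+ DCs, against 554 in CD8- DCs. Ccr9 (8.03 in CD8+ DCs, 5.94 in CD8- DCs) and Tcf4 (5.47 in CD8+ DCs, 7.55 in CD8- DCs) differed most, in opposite directions. Bst2 (7.37 in CD8+ DCs, 7.80 in CD8- DCs) and Klk1 (5.36 in CD8+ DCs, 5.35 in CD8- DCs) differed by less. Nearer the floor were Pacsin1 (4.26 in CD8+ DCs, 3.44 in CD8- DCs), Ly6d (4.19 in CD8+ DCs, 3.94 in CD8- DCs) and Siglech (3.71 in CD8+ DCs, 4.04 in CD8- DCs). Of 6 NK cell genes, 2 were measured, with sums of 61.9 in CD8+ DCs, against 79.6 in CD8- DCs. Klre1 was at 4.16 in CD8+ DCs, against 5.26 in CD8- DCs, and Prf1 at 4.04 in CD8+ DCs, against 4.11 in CD8- DCs. Ncr1, Eomes and Gzmb were below the floor. Of 7 melanoma genes, 3 were measured, with sums of 113 in CD8+ DCs, against 109 in CD8- DCs. These were Sox10 (5.21 in CD8+ DCs, 4.85 in CD8- DCs), Mitf (4.69 in CD8+ DCs, 5.08 in CD8- DCs) and Pmel (4.40 in CD8+ DCs, 4.30 in CD8- DCs). Mlana, Tyr and Dct were below the floor. Of 7 neutrophil and 4 erythroid genes, 1 each was measured, Csf3r (3.72 in CD8+ DCs, 4.37 in CD8- DCs) and Klf1 (3.96 in CD8+ DCs, 3.38 in CD8- DCs). The part of such cells in the differences of Pik3cd, Pik3ip1, Inpp5f, Inpp1 and Pik3cb was not tested.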

How the data were processed

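Total RNA was labelled as biotinylated cRNA and hybridised to 1 Affymetrix array per population. The deposited values are log2 signals per probe set, made by the authors with RMA, as named in the submitters' processing notes. RMA subtracts background, equalises the distributions of the arrays and merges probes by median polish, which hides any change common to most genes. Neither its version nor the set of arrays it was run on is given in the sources used here.

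Of 45101 probe sets, 34958 had 1 gene symbol in the platform annotation. Symbols were updated by gene identifier through RefSeq (GRCm38.p6), which matched 96 of the 98 member probe sets. Probe sets with several symbols were left out. The brightest probe set by the mean of both arrays stood for a gene. The floor was the median of all values, 3.85, and genes were counted past 2-fold. With 1 array per population no test was made, and the number of arrays limits the precision. The text names all members and, of each list around them, the 3 largest differences and every gene past 2-fold. The members, lists and motifs were chosen with earlier results of these data known. Alternatives were centring on the median, a lowess trend (span 0.3), no floor, a floor at the 75th percentile, averaged probe sets, no _x_at or _s_at probe sets, the floor in place of lower values, and folds of 1.5 and 4. Calculations used Python 3.11.15, numpy 2.4.6, pandas 2.3.3 and statsmodels 0.14.6, and were tested on simulated data.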

Additional observations from a re-analysis of the deposited data

How the results depend on the processing

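At least 2-fold, 1 member was higher in CD8+ DCs under each of the 7 alternatives that kept this threshold. The count in CD8- DCs was 2 or 3 under 6 of them, and 0 with all probe sets of a gene averaged, where Pik3ip1 (-0.97) and Inpp5f (-0.84) were under 2-fold. The count was 3 with each array centred on its median. Of all genes kept in each setting, 2.26% to 4.45% passed 2-fold on the CD8+ side and 3.8% to 7.37% on the CD8- side. The CD8- share was 5.37% with averaging and 6.28% with centring. At 1.5-fold the member counts were 6 in CD8+ DCs (background 8.49%), against 3 in CD8- DCs (background 11.5%). At 4-fold they were 0 and 0, and the share of all genes at 4-fold was not counted. The median difference of the members lay between -0.01 and 0.04. Of 260 member values under these 7 alternatives, 254 moved by less than 0.26, the SD between probe sets of a gene. The other 6 were those of Inpp4a, Inpp5f, Mtmr9, Pik3cd and Pik3ip1 with averaging and of Mtmr3 without probe sets prone to cross-hybridisation. Such probe sets stood for 5 measured members, and Pik3r4 had no other. No member past 2-fold changed sign. Of the genes around them, averaging brought Wdfy3 (0.47) and Cblb (0.75) under 2-fold, took Plekha1 past it and turned Mtm1 from 0.63 to -0.53, and centring took Itpr3 past it (-1.01). No replicate could be left out, and no paired analysis was possible because each population has 1 array. Detection calls were not used.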
